A study of Mus musculus with 2 samples.

Results

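The genes described here are 37 interferon response genes, chosen as a fixed list of gene names out of 43026 genes with a column in either table. The list holds 13 GTPase genes of the kind induced by interferon gamma, 19 antiviral genes of the type I interferon response, and 5 genes for regulators and a receptor chain. All 37 have a column in the young table and 36 in the aged table, where Oas1a has none. The data are single-cell RNA counts of testis cells from mice aged 2 months (young) and 24 months (aged), 1 library per age, made on BD Rhapsody, a platform that captures cells in microwells. The sources used here give no strain, genotype, treatment or number of mice, and the labels call the cells stroma cells although the files also hold germ cells. The young file held 2771 cells and 53413783 counts, and the aged file 6823 cells and 66390904 counts. Of these, 2732 young and 5691 aged cells were analysed, and 32 of them share a cell index across the libraries. With 1 library per age no p-value can be given, age and library cannot be told apart, and a gene is counted as higher or lower when it was at least 1.5-fold apart with 10 or more counts.

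Interferon gamma signals through its own receptor to promoter sites called GAS and switches on Irf1 and families of GTPases. Type I interferons signal through another receptor to a complex that contains STAT2 and IRF9, which binds sites called ISRE and drives antiviral genes such as Isg15, Rsad2 and the Ifit genes. Most interferon response genes answer to both in some degree, and Leydig cells, the androgen-producing cells of the testis, lie in the same interstitial space as its resident macrophages.

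A level in CPM is the summed count of a gene in all cells of one class and library, scaled to 1000000 counts and not divided by transcript length. Each ratio divides the aged by the young level and is followed by its exact 95% conditional binomial interval, which covers counting error only. Cell classes come from joint clustering and marker genes, so each carries the ending "-like". There were 1085 young and 579 aged Leydig-like cells, 127 and 70 macrophage-like cells, 17 and 130 fibroblast-like cells, 661 and 2359 spermatocyte-like cells, 465 and 734 round spermatid-like cells, and 138 and 324 elongating spermatid-like cells. The 10 Leydig markers summed to 31526 and 24852 CPM in Leydig-like cells, and the 13 macrophage markers to 28146 and 39074 CPM in macrophage-like cells. The whole libraries held 55.2 (young) and 29.6 (aged) CPM of GTPase counts, a mean over cell classes that make up different shares of the libraries.

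RefSeq promoter windows on GRCm38.p6, 300 bases each with 250 before the start of transcription, were matched for 29 of the 37 genes. The ISRE was searched as GAAA, 2 bases of any kind and GAAA again, and the GAS site as TTC, 3 bases of any kind and GAA, on both strands with overlapping matches counted. In 9 of 10 GTPase windows and 9 of 14 antiviral windows the ISRE letters were present, against 3.99% of 27025 genes. The GAS letters were present in 6 of 10 GTPase and 4 of 14 antiviral windows, against 9.55% of all genes. The windows of 4 GTPase genes of chromosome 11 hold both sets of letters 11 bases apart, with a gap of 2 bases between them. The same arrangement was found in 5 genes in all, 0.0185% of those with a window. These stretches are shown because they differ in few letters between genes, with the GAS letters first and the ISRE letters second in capitals, each on the strand of its gene.

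Igtp (chr11:58199499-58199543, plus strand): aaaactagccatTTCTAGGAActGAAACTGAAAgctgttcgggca
Irgm2 (chr11:58214890-58214934, plus strand): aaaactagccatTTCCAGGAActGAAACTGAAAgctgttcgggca
Tgtp1 (chr11:48992302-48992346, minus strand): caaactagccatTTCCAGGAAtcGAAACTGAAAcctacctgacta
Tgtp2 (chr11:49064261-49064305, minus strand): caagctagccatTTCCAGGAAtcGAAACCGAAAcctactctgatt

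The next stretches are the 140 bases before the start of 3 further GTPase genes, 3 antiviral genes and Irf1, whose levels the results below turn on. Capitals again mark the ISRE or GAS letters.

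Irgm1 (chr11:48871421-48871560, minus strand): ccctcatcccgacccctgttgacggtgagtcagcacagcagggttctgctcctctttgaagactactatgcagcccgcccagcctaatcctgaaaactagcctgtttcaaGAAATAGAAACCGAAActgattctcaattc
Gbp2 (chr3:142620523-142620662, plus strand): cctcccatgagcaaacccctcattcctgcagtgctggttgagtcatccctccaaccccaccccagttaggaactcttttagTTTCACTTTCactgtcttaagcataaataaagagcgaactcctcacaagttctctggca
Gbp7 (chr3:142530196-142530335, plus strand): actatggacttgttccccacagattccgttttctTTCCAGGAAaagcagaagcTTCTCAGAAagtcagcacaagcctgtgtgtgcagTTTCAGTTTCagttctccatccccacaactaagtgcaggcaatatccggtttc
Isg15 (chr4:156200819-156200958, minus strand): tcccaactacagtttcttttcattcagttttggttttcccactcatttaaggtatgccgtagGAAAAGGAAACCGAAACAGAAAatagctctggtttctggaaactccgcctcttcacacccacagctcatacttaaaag
Rsad2 (chr12:26456453-26456592, minus strand): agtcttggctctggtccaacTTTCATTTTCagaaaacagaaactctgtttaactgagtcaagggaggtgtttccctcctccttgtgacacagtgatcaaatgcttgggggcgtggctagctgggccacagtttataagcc
Bst2 (chr8:71537473-71537612, minus strand): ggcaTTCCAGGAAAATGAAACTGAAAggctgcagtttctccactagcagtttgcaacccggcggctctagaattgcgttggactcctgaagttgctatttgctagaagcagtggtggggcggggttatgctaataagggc
Irf1 (chr11:53769874-53770013, plus strand): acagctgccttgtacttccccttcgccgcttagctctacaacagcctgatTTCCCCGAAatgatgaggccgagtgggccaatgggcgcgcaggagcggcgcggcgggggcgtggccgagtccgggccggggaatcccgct

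Isg15 holds 3 overlapping ISRE matches and Irgm1 holds 2. Bst2 holds a GAS match that runs into 2 overlapping ISRE matches. Irf1 holds the GAS letters 90 bases before its start and no ISRE letters, the reverse of Gbp2 and Rsad2. A match is a description of letters and not a bound site.

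**Figure D1:**
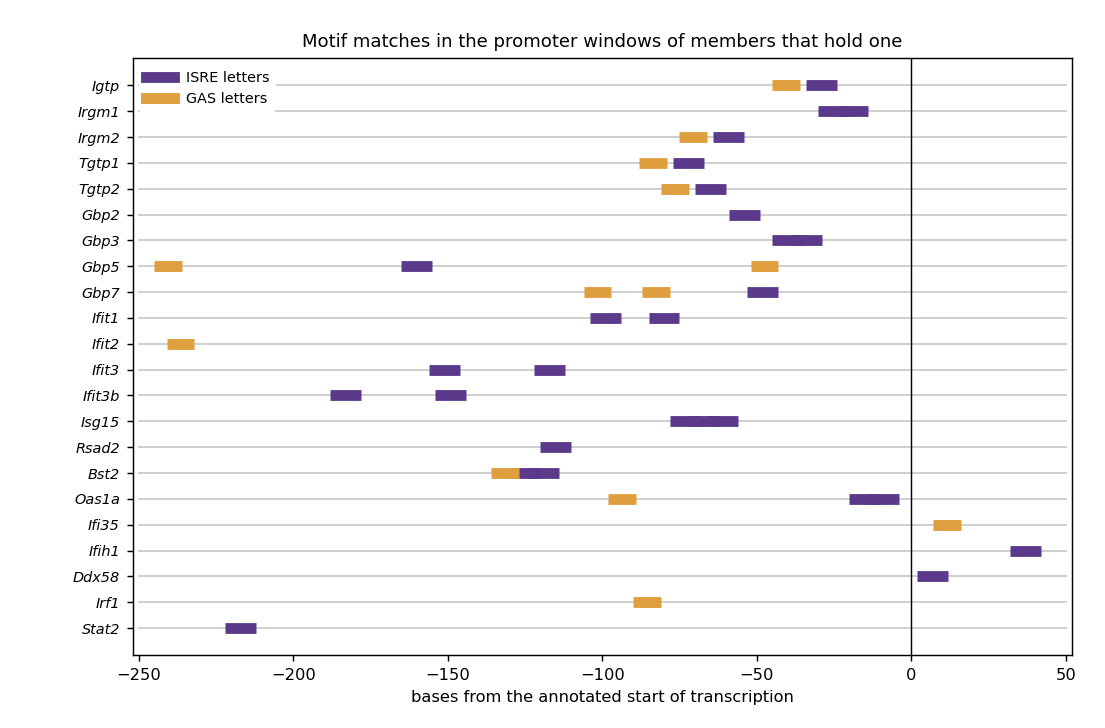
Positions of ISRE letters (purple) and GAS letters (orange) in promoter windows, with the distance from the annotated start of transcription in bases on the horizontal axis and 1 line per member that holds a match. Igtp, Irgm2, Tgtp1 and Tgtp2 show the same pair at distances of 45, 75, 88 and 81 bases to its first base.

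Leydig-like cells held more GTPase RNA in the aged library. The 13 GTPase genes summed to 242 CPM in young (1914 counts) and 483 CPM in aged cells (1354 counts), a ratio of 1.99 (1.86 to 2.14). Of 13 genes 10 reached 10 counts, and 8 of these were higher and 0 lower, where 11.1% of all 15287 genes with 10 or more counts were higher and 13.3% lower. The median log2 ratio was 1.06 over the 10 genes and -0.01 over all genes.

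Among the immunity-related GTPases, which gather on membranes of vacuoles that hold microbes, Irgm1 gave the most counts. Its level was 104 CPM (823 counts) in young and 171 CPM (479 counts) in aged cells, a ratio of 1.64 (1.46 to 1.84). Iigp1 was at 41.5 CPM (328 counts) and 128 CPM (358 counts), a ratio of 3.07 (2.64 to 3.58). Both intervals lie above 1, and that of Iigp1 lies above that of Irgm1. Ifi47 was at 11.5 and 31.4 CPM (91 and 88 counts), a ratio of 2.72 (2.01 to 3.69). Igtp was at 12.3 and 24.3 CPM, a ratio of 1.97 (1.43 to 2.72). Irgm2 was at 11.8 and 15.3 CPM, a ratio of 1.30 (0.885 to 1.89) whose interval includes 1. The annotated models of Igtp (chr11:58199556-58207591) and Irgm2 (chr11:58199618-58222782) overlap on 1 strand in GENCODE M21 on GRCm38, so how their counts were divided is uncertain. Tgtp1 had no count and Tgtp2 had 1, and since these copies are nearly the same in sequence their counts are uncertain.

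The guanylate-binding proteins, which coat and open such vacuoles, formed the other branch. Gbp2 was at 7.47 CPM (59 counts) and 24.3 CPM (68 counts), a ratio of 3.25 (2.26 to 4.68). Gbp5, which also promotes inflammasome assembly, was at 5.45 and 14.98 CPM (43 and 42 counts), a ratio of 2.75 (1.75 to 4.31). Gbp3 was at 5.70 and 11.8 CPM, a ratio of 2.07 (1.28 to 3.31). All 3 intervals lie above 1. Gbp7, with the most counts of the family, was at 40.4 and 58.5 CPM (319 and 164 counts), a ratio of 1.45 (1.19 to 1.75). Gbp6 was at 1.90 and 3.92 CPM on 15 and 11 counts, and Gbp4 had no count. By position, the 4 genes Gbp5, Gbp7, Gbp3 and Gbp2 (chr3:142493978-142638008) summed to 59.0 and 109.5 CPM, a ratio of 1.86 (1.60 to 2.15). The chromosome 11 run of Irgm1, Tgtp1, Tgtp2 and Ifi47 (chr11:48861968-49096974) had a ratio of 1.75 (1.57 to 1.94). Both runs were higher in the aged library, and their intervals overlap.

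Antiviral genes were also higher in aged Leydig-like cells, by less in sum. The 19 genes summed to 310 CPM (297.8 to 322) in young and 417 CPM (393 to 441) in aged cells, a ratio of 1.34 (1.25 to 1.44). Of 16 genes with 10 or more counts 9 were higher and 0 lower, where 11.1% of all genes were higher and 13.3% lower. The median log2 ratio of the 16 genes was 0.71. The largest part of the sum was Bst2, which encodes tetherin, a membrane protein that holds budding viruses on the cell. Bst2 was at 186 CPM (1466 counts) and 202 CPM (566 counts), a ratio of 1.09 (0.985 to 1.199). Without it the summed log2 ratio of the antiviral genes was 0.79 in place of 0.43.

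The largest ratio of the list belonged to Rsad2, which encodes viperin, an enzyme that makes a chain-terminating nucleotide. Rsad2 was at 6.08 CPM (48 counts) and 27.1 CPM (76 counts), a ratio of 4.46 (3.07 to 6.54). Isg15, a ubiquitin-like modifier, was at 15.6 CPM (123 counts) and 41.4 CPM (116 counts), a ratio of 2.66 (2.04 to 3.45). Usp18, the protease that removes Isg15 and dampens the type I receptor, was at 1.90 and 5.35 CPM on 15 counts in each library, a ratio of 2.82 (1.28 to 6.18). These 3 intervals lie above 1. Oasl2 of the oligoadenylate synthetase family was at 8.36 and 17.1 CPM, a ratio of 2.05 (1.38 to 3.02). Ifit3, which binds other Ifit proteins that hold viral RNA, was at 6.46 and 14.3 CPM, a ratio of 2.21 (1.42 to 3.41). Rtp4 was at 7.22 and 12.5 CPM, and Xaf1 at 13.6 and 19.98 CPM, with intervals of 1.10 to 2.68 and 1.05 to 2.05.

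Other antiviral members of Leydig-like cells had intervals that include 1. Ifit1 was at 4.69 and 6.42 CPM, Ifit2 at 1.27 and 2.14 CPM and Ifit3b at 3.04 and 4.28 CPM. Ifit3 and Ifit3b are near-copies, and the 4 Ifit genes (chr19:34550694-34650009) together were at 15.5 and 27.1 CPM, a ratio of 1.75 (1.30 to 2.36). The viral RNA sensors Ifih1 (MDA5) and Ddx58 (RIG-I) were at 18.7 and 20.3 CPM and at 10.4 and 13.6 CPM. Ifi35 was at 22.2 and 22.8 CPM, Parp14, an ADP-ribosyltransferase, at 2.53 and 4.28 CPM, and Zbp1, a sensor of left-handed nucleic acid, at 1.65 and 2.497 CPM. Mx1 and Ifi44 had 2 and 1 counts each in the young and aged library, and Oas1a had 1 young count.

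Irf1, the transcription factor gene whose window holds the GAS letters, gave the most counts of any member in aged Leydig-like cells. Its level was 177 CPM (1398 counts) in young and 707 CPM (1983 counts) in aged cells, a ratio of 3.99 (3.73 to 4.28). The other regulators were closer between the libraries. Irf7, the amplifier of the type I response, was at 9.25 and 16.1 CPM, a ratio of 1.74 (1.17 to 2.55). Stat2 was at 29.6 and 39.95 CPM, a ratio of 1.35 (1.07 to 1.696). Irf9 was at 33.9 and 35.3 CPM, and Ifngr2, a chain of the gamma receptor, at 27.6 and 25.3 CPM, both with intervals that include 1. Stat2 and Irf9, which encode parts of the type I complex, therefore lay below 1.5-fold, while Irf1 lay far above it.

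**Figure D2:**
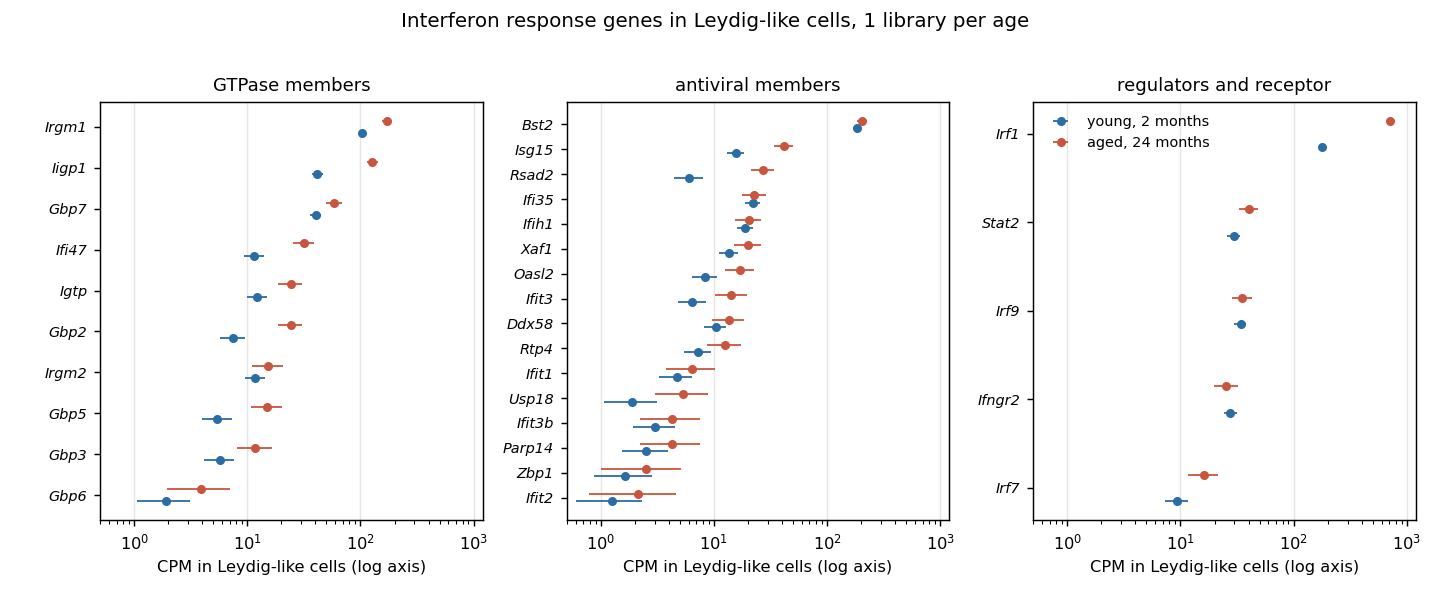
CPM (log axis) of each member with 10 or more counts in Leydig-like cells of the young (blue) and aged (red) library, with exact 95% Poisson intervals as bars, in panels by role. Irf1 moves from 177 to 707 CPM, while Bst2 at 186 and 202 CPM barely moves.

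The 2 roles can be set against each other within the same Leydig-like cells, without the cell totals. GTPase genes gave 43.9% (42.4 to 45.4, exact Clopper-Pearson) of the GTPase plus antiviral counts for young and 53.7% (51.7 to 55.6) for aged cells, an odds ratio of 1.48 (1.34 to 1.64). Without Irgm1 and Bst2, the gene with most counts in each role, the odds ratio was 1.31 (1.14 to 1.499).

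The wider pathway was read from 72 other genes, of which 68 have a column and 50 reached 10 counts in Leydig-like cells. Of the 50, 11 were higher and 0 lower, where 11.1% of all genes were higher and 13.3% lower, and the median log2 ratio was 0.17. Of 9 ligand genes 7 have a column, while Ifna1 and Ifna4 have none and cannot be read. Ifng, Ifnb1, Ifna2, Ifne and Ifnk had no count in Leydig-like or macrophage-like cells of either library. The lambda interferon genes Ifnl2 and Ifnl3, near-copies of each other, had 39 and 15 young and 11 and 9 aged counts in Leydig-like cells. Together these 2 genes were at 6.84 and 7.13 CPM. Receptor and kinase genes gave 0 higher and 0 lower of 7, which is near the background of 11.1% and 13.3%. Ifngr1, the ligand-binding gamma receptor chain, was at 15.6 and 10.3 CPM, Ifnar1 at 13.6 and 11.4 CPM and Ifnar2 at 35.3 and 37.8 CPM. Of the kinases, Jak1 was at 182 and 162 CPM, Jak2 at 16.5 and 17.8 CPM and Tyk2 at 13.05 and 9.63 CPM. Il10rb, a chain of the lambda receptor, was at 56.1 and 57.1 CPM, and Ifnlr1 had 2 counts in each library.

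Among factors, Irf8 was at 265 and 194 CPM, a ratio of 0.733 (0.666 to 0.806). Of the brakes, Socs1, which blocks the JAK kinases, was at 35.8 and 85.6 CPM, a ratio of 2.39 (2.00 to 2.85), and Socs3 at 400.1 and 382 CPM. The chemokine gene Cxcl10 had the largest ratio, with 68.1 CPM (538 counts) and 495 CPM (1388 counts), 7.27 (6.57 to 8.04). Dtx3l was at 7.35 and 14.98 CPM, Cmpk2, a mitochondrial nucleotide kinase, at 4.43 and 8.20 CPM, Dhx58 at 17.98 and 27.5 CPM and Eif2ak2, the double-stranded RNA kinase PKR, at 19.1 and 28.9 CPM.

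Leydig-like cells fell into 2 clusters that nearly follow the library, so a cluster may be a library and not a cell type. Cluster 1 held 1048 young and 56 aged cells and was led by kallikrein genes, and cluster 6 held 37 young and 523 aged cells and counted Cxcl10 and Irf1 among its 10 leading genes. In cluster 1 the GTPase sum was 241 CPM (229.9 to 252) in young and 206 CPM (151 to 275) in aged cells, a ratio of 0.857 (0.626 to 1.15). The antiviral sum there was 308 and 229 CPM, a ratio of 0.743 (0.552 to 0.981). In cluster 1, therefore, the aged cells did not stand above the young ones, on 46 aged GTPase counts. Of its 10 GTPase genes with 10 or more counts 3 were higher and 2 lower, where 27.5% of all genes were higher and 15% lower. The 5 aged cells of cluster 1 with most GTPase counts held 19 of those 46 counts.

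In cluster 6 the GTPase sum was 289.8 CPM (228 to 363) in young and 507 CPM (479.8 to 535) in aged cells, a ratio of 1.75 (1.39 to 2.24). The antiviral sum was 367 and 433 CPM, a ratio of 1.18 (0.956 to 1.47). The young GTPase value rests on few cells: 5 of 37, chosen for their counts, held 40 of 75 GTPase counts, and the rest were at 166 CPM. Of 10 GTPase genes in cluster 6, 6 were higher and 0 lower, and of 14 antiviral genes 9 were higher and 1 lower. Of all genes there, 18.1% were higher and 21.7% lower. The median log2 ratios were 0.89 for GTPase and 1.06 for antiviral genes, the reverse of the order in the whole class. Both medians include genes with 0 young counts. The GTPase share of GTPase plus antiviral counts was 44.1% (36.5 to 51.9) in young and 53.9% (51.9 to 55.9) in aged cells. In cluster 1 that share was 43.9% and 47.4% (37.2 to 57.8). Irf1 was apart within each cluster, at 177 and 314 CPM in cluster 1, a ratio of 1.77 (1.37 to 2.25), and at 170.0 and 741 CPM in cluster 6, a ratio of 4.36 (3.24 to 6.02). Iigp1 was at 41.4 and 40.4 CPM in cluster 1 and at 46.4 and 135 CPM in cluster 6. Irgm1 was at 103 and 53.9 CPM (12 aged counts) in cluster 1, a ratio of 0.522 (0.269 to 0.917). In cluster 6 Irgm1 was at 135 and 181 CPM, a ratio of 1.34 (0.948 to 1.94) whose interval includes 1. The ratio of the whole class thus joins young cells that are mostly of cluster 1 to aged cells that are mostly of cluster 6. With clusters made without any listed interferon or pathway gene, the Leydig-like log2 ratios were 0.995 for GTPase and 0.43 for antiviral genes, against 0.994 and 0.43 with all genes. That class held nearly the same cells (1085 young and 580 aged), so these values could hardly differ and do not bear on clusters 1 and 6. It again fell into a cluster of 1039 young and 60 aged cells and a cluster of 46 young and 520 aged cells.

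**Figure D3:**
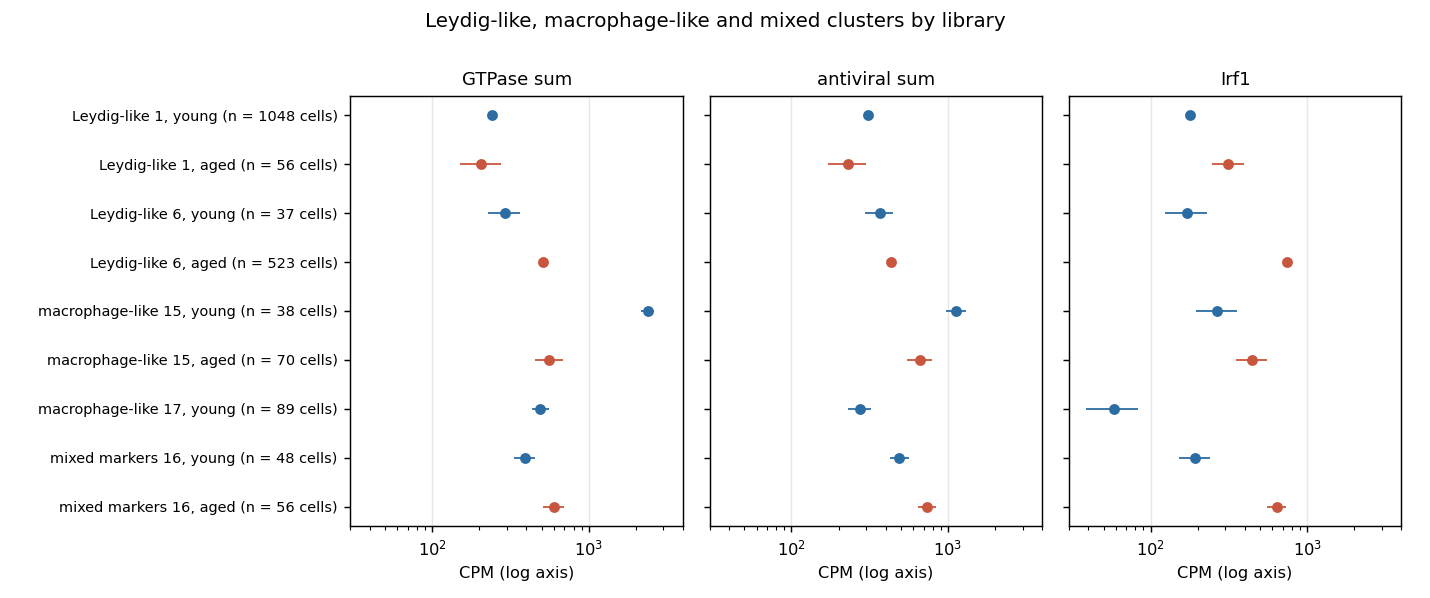
GTPase sum, antiviral sum and Irf1 in CPM (log axis) for each Leydig-like and macrophage-like cluster and the cluster with markers of both, young in blue and aged in red, with exact 95% Poisson intervals. Aged cells of cluster 1 lie at 206 CPM of GTPase counts and aged cells of cluster 6 at 507 CPM, while young macrophage-like cells of cluster 15 lie at 2384 CPM.

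Markers of other cells were read beside these values. The 13 macrophage markers summed to 59.3 CPM (54.0 to 64.9) in young and 84.2 CPM (73.8 to 95.6) in aged Leydig-like cells, all 13 with a count in each library. Counts of C1qa, C1qb, C1qc, Lyz2, Cd74 or H2-Aa were present in 110 of the 1085 young cells (10.1%) and in 32 of the 579 aged cells (5.53%). The 9 lymphocyte markers summed to 2.66 and 1.07 CPM, with Cd3g, Nkg7, Ptprcap and Cd79a at 0 in both libraries. Over the 975 young and 547 aged Leydig-like cells without any count of those 6 genes, the log2 ratio of the GTPase sum was 1.01 and that of the antiviral sum 0.44, against 0.99 and 0.43 over all cells.

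Of the Leydig-like cells, 67.6% (young) and 71.8% (aged) had at least 1 GTPase count, where the median depth was 6936 and 4754 counts. Spermatocyte-like cells, which have little GTPase RNA, had one in 3.63% and 1.44% of cells. After each cell was thinned to 2000 counts, leaving out 0 young and 51 aged cells, the Leydig-like share was 33.4% (30.6 to 36.3) and 47.5% (43.2 to 51.9). The antiviral share was 46.2% and 54.7%, and the regulator share 35.9% and 67.4%. All 3 thinned shares were thus higher in the aged library.

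Within thinned Leydig-like cells, a GTPase count was about as common in cells with an antiviral count as in cells without one. The shares were 35.1% and 31.8% among young and 47.4% and 47.7% among aged cells. Of the 501 young cells with an antiviral count, 336 had a Bst2 count, so this comparison rests largely on Bst2. It was not made without Bst2, and it does not speak for the other antiviral genes. Cells with an Irf1 count more often held a GTPase count, with 43.4% (37.2 to 49.8) against 30.3% (27.2 to 33.6) among young and 58.8% (53.1 to 64.2) against 30.3% (24.1 to 37.0) among aged cells. Cells of 1 library are not replicates, and these shares describe the libraries. No single cell carried the sums, since the highest held 50 of 1914 young and 45 of 1354 aged GTPase counts.

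In macrophage-like cells the GTPase sum was lower in the aged library. Over the class, which joins 2 unlike clusters, Igtp, Gbp2 and Irgm2 were the genes counted as lower. In cluster 15, the only one with cells of both libraries, all 9 measured genes were lower, as given below. The GTPase sum was 976 CPM (903 to 1054) on 657 young counts and 559 CPM (454 to 681) on 98 aged counts, a ratio of 0.573 (0.458 to 0.709). Of 9 genes with 10 or more counts 0 were higher and 3 lower, where 33.2% of all 8719 genes were higher and 27.9% lower. The count is near that background, and the median log2 ratio of the 9 genes was -0.01, with 4 of 9 above 0. The antiviral sum was 492 and 662 CPM, a ratio of 1.35 (1.08 to 1.67), with 6 of 14 genes higher and 4 lower. GTPase genes gave 66.5% of the GTPase plus antiviral counts for young and 45.8% for aged cells, an odds ratio of 0.426 (0.312 to 0.581). In the same cells the Leydig markers summed to 181 and 405 CPM and the spermatocyte markers to 96.6 and 570.3 CPM, and the median depth was 5014 and 1976 counts. Their part in these values was not tested.

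By member, Igtp was at 281 CPM (189 counts) and 45.6 CPM (8 counts), Gbp2 at 189 CPM (127 counts) and 79.8 CPM (14 counts), and Irgm2 at 90.6 CPM (61 counts) and 34.2 CPM (6 counts). All 3 were lower in the aged library, while Iigp1 was even at 95.1 and 97.0 CPM. Of the antiviral genes, Isg15 was at 20.8 and 74.1 CPM on 14 and 13 counts, a ratio of 3.56 (1.54 to 8.18). Oasl2 was at 23.8 and 62.7 CPM, and Bst2 at 160.5 and 262 CPM, a ratio of 1.63 (1.13 to 2.33). Usp18 had 18 young and 0 aged counts, at least 1.56-fold lower in the aged library against a limit of 3 counts. Irf1 was at 111 and 445 CPM (75 and 78 counts), a ratio of 3.99 (2.87 to 5.56) over the class. In cluster 15 alone Irf1 was at 267 CPM (46 counts) in young and 445 CPM (78 counts) in aged cells, closer together than over the class. Cluster 17, which held young cells only, had Irf1 at 57.9 CPM (29 counts). Ifngr2 was at 162 and 103 CPM, Irf9 at 52.005 and 62.7 CPM and Stat2 at 31.2 and 45.6 CPM. The chemokine gene Cxcl9, a gamma response gene outside the list, was at 345 and 39.9 CPM.

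These sums join 2 unlike clusters. Cluster 17, led by Fcrls, Ccl3 and Ccl4 among others, held 89 young and no aged cells, and cluster 15, led by Ccl8, Lyz2 and Csf1r, held 38 young and 70 aged cells. Igtp was at 309.6 CPM (155 counts) in cluster 17, where Iigp1 and Oasl2 had 0 counts, Gbp2 was at 15.98 CPM and Gbp5 had 1 count. In young cells of cluster 15, Igtp was at 197 CPM, Gbp2 at 690.3 CPM, Iigp1 at 371 CPM and Gbp5 at 145 CPM. Igtp and Irgm2, the latter at 93.9 CPM (47 counts), gave most of the 246 GTPase counts of cluster 17, while Gbp2 and Iigp1 led those of young cluster 15 cells.

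In cluster 15 alone, the GTPase sum was 2384 CPM in young and 559 CPM in aged cells, a ratio of 0.234 (0.186 to 0.293), and all 9 measured genes were lower, where 29.3% of all genes were higher and 22.3% lower. The antiviral sum there was 1125 and 662 CPM, a ratio of 0.588 (0.463 to 0.744), so that its direction is the reverse of the whole class. The young value of cluster 15 rests on few cells: 5 of 38 cells, chosen for their counts, held 285 of 411 GTPase counts, and the remaining 33 cells were at 849 CPM. Among those 285 counts were 99 of Gbp2, 45 of Iigp1 and 28 of Igtp. The young Gbp2, Iigp1 and Igtp levels of cluster 15 thus rest on these cells too. Leaving out the 5 highest of the 70 aged cells gave 356 CPM.

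Fibroblast-like cells gave too few counts to read most members, with 17 young cells. The GTPase sum was 439.9 CPM (34 counts) and 288 CPM (58 counts), a ratio of 0.655 (0.421 to 1.03), and the antiviral sum 815 and 635 CPM, a ratio of 0.780 (0.572 to 1.07). Of 15 members with 10 or more counts 3 were higher and 5 lower, where 18.5% of all genes were higher and 23.2% lower. Irf1 was at 64.7 CPM (5 counts) and 382 CPM (77 counts), a ratio of 5.91 (2.43 to 18.7). Its interval includes the Irf1 ratio of 3.99 in Leydig-like cells and over the macrophage-like class, which joins unlike clusters.

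Other fibroblast-like values were of mixed direction. Ifit1 was at 181 CPM (14 counts) and 19.9 CPM (4 counts), and 1 young cell held 38 of the 63 young antiviral counts. Irgm1 was at 116 and 39.7 CPM, Gbp2 at 104 and 59.6 CPM, Gbp7 at 51.8 and 49.6 CPM and Iigp1 at 25.9 and 79.4 CPM. Bst2 was at 194 and 189 CPM, Xaf1 at 104 and 49.6 CPM, Isg15 at 77.6 and 59.6 CPM and Ifit2 at 12.9 and 44.7 CPM. Ifngr2 was at 90.6 and 94.3 CPM and Irf9 at 64.7 and 89.4 CPM. Macrophage markers summed to 1113 CPM in young and 84.4 CPM in aged fibroblast-like cells. In fibroblast-like cells without any count of the 6 macrophage genes C1qa, C1qb, C1qc, Lyz2, Cd74 and H2-Aa, the log2 ratio was -0.87 for the GTPase sum and -0.49 for the antiviral sum.

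**Figure D4:**
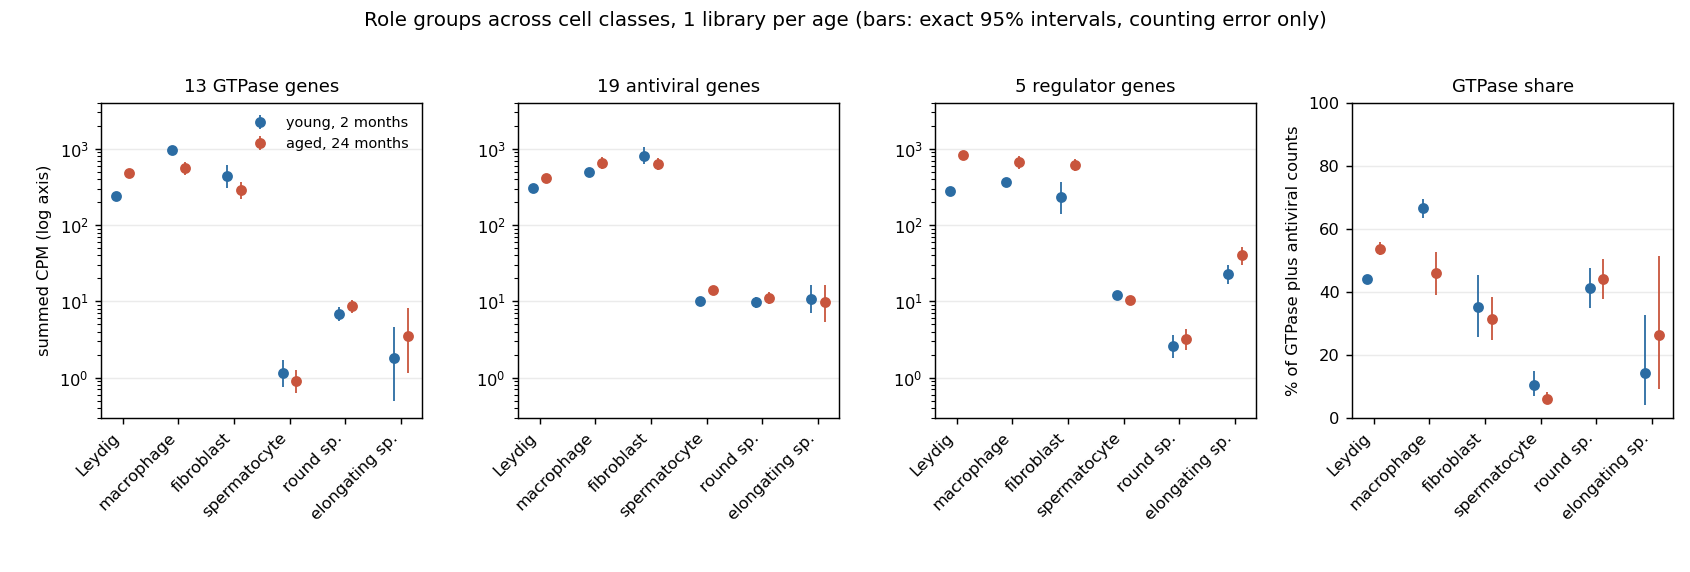
Summed CPM (log axis) of the GTPase, antiviral and regulator genes, and the GTPase share of GTPase plus antiviral counts in percent, for 6 cell classes in the young (blue) and aged (red) library with exact 95% intervals. The GTPase share was 43.9% and 53.7% in Leydig-like cells and 66.5% and 45.8% in macrophage-like cells, and germ cells lie far below the other classes in all 3 sums.

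Germ cells held little of this RNA. In spermatocyte-like cells the GTPase sum was 1.16 CPM (25 counts) and 0.903 CPM (36 counts), with Irgm1 at 0.372 and 0.477 CPM, Iigp1 at 0.186 and 0.100 CPM and Gbp6 at 0.186 and 0.0752 CPM. Leydig markers, which such cells should lack, summed to 90.9 and 28.7 CPM there. Against that background no expression is read from the GTPase counts.

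The antiviral sum of spermatocyte-like cells was 10.1 CPM (218 counts) and 14.0 CPM (560 counts), a ratio of 1.38 (1.18 to 1.63). Most of it was counts of the RNA sensor Ddx58 and of Xaf1. Ddx58 was at 3.40 CPM (73 counts) and 7.17 CPM (286 counts), a ratio of 2.111 (1.63 to 2.77), and Xaf1 at 2.14 CPM (46 counts) and 4.36 CPM (174 counts), a ratio of 2.04 (1.47 to 2.89). Without Ddx58 the summed log2 ratio was 0.03. Of 6 antiviral genes with 10 or more counts 2 were higher and 2 lower, where 18.2% of all 19739 genes were higher and 13.5% lower. Zbp1 was at 1.44 and 1.08 CPM, Bst2 at 1.44 and 0.426 CPM, Parp14 at 0.884 and 0.401 CPM, and Isg15 had no count in either library. Leydig-like cells of each library held more Isg15 than Ddx58 counts. Ifngr2 was at 7.17 and 5.32 CPM, Stat2 at 3.304 and 3.51 CPM and Irf1 at 1.12 and 0.828 CPM.

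Gbp5 gave most of the GTPase counts of round spermatid-like cells. It was at 5.50 CPM (78 counts) and 7.66 CPM (93 counts), a ratio of 1.39 (1.02 to 1.91), in a GTPase sum of 6.84 and 8.73 CPM. Leydig markers summed to 137 and 35.8 CPM in these cells. Irgm1, the GTPase gene with most counts in Leydig-like cells, was at 0.564 and 0.165 CPM there, and Iigp1 at 0.212 and 0.330 CPM. In Leydig-like cells the order was the reverse, with Gbp5 at 5.45 CPM and Irgm1 at 104 CPM in the young library. Cells with a Gbp5 count made up 14.6% (young) and 11.6% (aged) of round spermatid-like cells, whose median depths were 29255 and 16484 counts. The same shares were 0.303% and 0.0848% in spermatocyte-like cells, whose median depths were 30661 and 16822 counts. After thinning to 2000 counts per cell, the round spermatid-like shares were 1.51% (0.607 to 3.08) and 1.24% (0.567 to 2.33), and the spermatocyte-like shares were 0 with upper bounds of 0.557% and 0.163%.

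Mx1, a dynamin-like GTPase that blocks influenza and related viruses, led the antiviral genes of round spermatid-like cells. It was at 3.81 CPM (54 counts) and 4.53 CPM (55 counts), against 0.253 and 0.357 CPM in Leydig-like cells. The members that follow were at low levels. How much of each was carried over from other cells was not tested, so no expression is read from them. Parp14 was at 1.62 and 1.73 CPM, Ddx58 at 1.27 and 1.73 CPM, Bst2 at 1.62 and 1.24 CPM, Irf1 at 1.199 and 1.32 CPM, Ifngr2 at 0.564 and 1.24 CPM and Stat2 at 0.494 and 0.330 CPM. Of 11 members with 10 or more counts 2 were higher and 1 lower, where 8.31% of all genes were higher and 8.53% lower. The GTPase share was 41.1% and 44.0%, an odds ratio of 1.12 (0.770 to 1.64).

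Elongating spermatid-like cells held 4 young and 5 aged GTPase counts and 24 and 14 antiviral counts. Each GTPase gene had at most 1 count per library, with Irgm2 and Gbp5 at 1 in each. Their main member was Ifngr2, at 21.8 CPM (48 counts) and 35.2 CPM (50 counts), a ratio of 1.62 (1.07 to 2.46). That is 1 of 2 members with 10 or more counts, the other being Bst2 at 3.18 and 4.23 CPM, where 11.7% of all genes were higher and 16% lower. In Leydig-like cells Ifngr2 was at 27.6 and 25.3 CPM. Oasl2 was at 1.82 and 3.52 CPM, Xaf1 had 5 young and 0 aged counts, and Irf1 had 2 and 6.

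**Figure D5:**
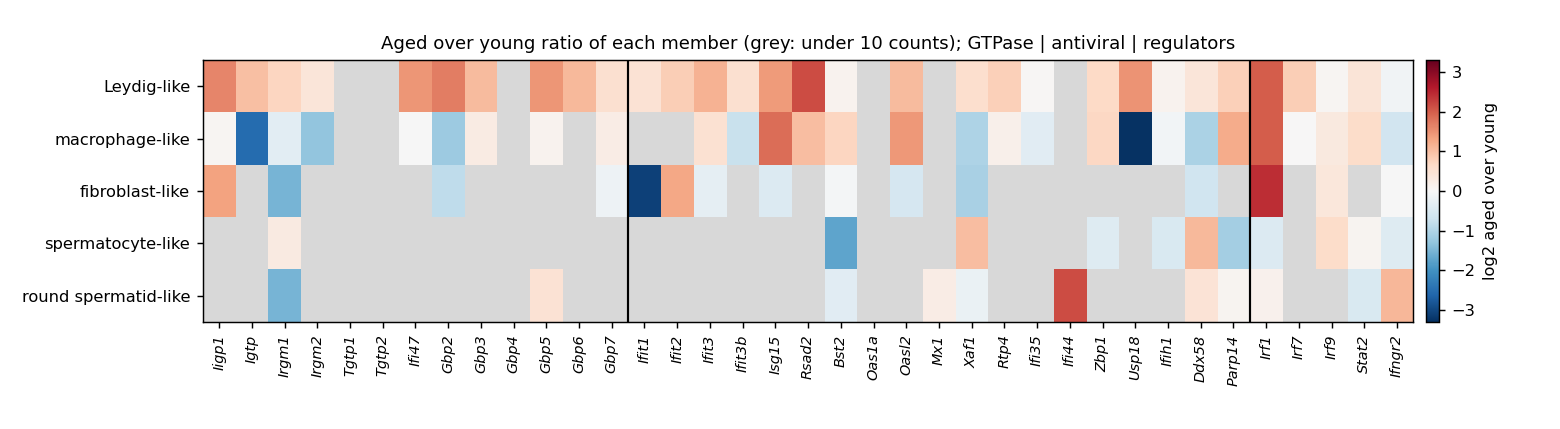
Log2 aged over young ratio of each member (columns, by role) in 5 cell classes (rows), red for higher and blue for lower in the aged library and grey for under 10 counts. Leydig-like cells show 30 of 31 measured members above 0. Irf1 is above 0 in Leydig-like, macrophage-like and fibroblast-like cells, slightly above 0 in round spermatid-like cells and below 0 in spermatocyte-like cells.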

How the data were processed

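The authors deposited 1 table of raw counts per cell and gene for each library. Per the file headers, the aged table came from version 1.7.1 of the Rhapsody Analysis Pipeline with STAR 2.5.2b, and the submitters' processing notes list Cell Ranger 2.11 and mm10. How cells were called, and whether the values count molecules or reads, is not given in the sources used here.

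Cells with at least 500 counts, at least 200 genes and at most 25% mitochondrial counts were kept (2770 young, 5812 aged), and Scrublet marked 38 and 121 of them as doublets, which were left out. The median depth of the analysed cells was 15649.5 and 11381 counts. Both libraries were clustered together (scanpy 1.11.5, 2000 variable genes, 40 principal components, 15 neighbours, Leiden resolution 1, seed 1). Marker lists gave the clusters their names. Of the naming rule, 2 limits (at least 3 raised markers, and the distance to the second class) were changed once the clusters were known.

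CPM values, ratios and exact intervals were computed with Python 3.11.15, pandas 2.3.3 and scipy 1.17.1, and log2 ratios used a pseudocount of 0.5 counts. With 1 library per age no test across samples was possible. The scripts were tested on simulated data. The members and gene lists were chosen with earlier results of these data known.

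Every member with 10 or more counts is given in Leydig-like cells. In the other classes, the 3 highest members of each role and the 3 largest log2 ratios among those with 50 or more counts (10 in macrophage-like and fibroblast-like cells) are named. Other pathway genes are named when they had 50 or more counts and were 1.5-fold apart in Leydig-like cells, and ligands and receptors always. Single genes outside this rule were chosen after their values were seen. Alternatives covered the cell filter, doublets, cluster resolution, marker scores, scaling, thinning to 2000 counts, means per cell, single clusters and leaving out the gene with most counts.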

Additional observations from a re-analysis of the deposited data

Results flagged for a closer look

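In 5 members the level was at least 1.5-fold higher in one cell class and at least 1.5-fold lower in another, with both counting intervals apart from 1. The share of all genes that meet this rule is not given, so the count is not read as a result about the members. By fold alone, 33.2% of all genes were higher and 27.9% lower in macrophage-like cells, and 18.5% and 23.2% in fibroblast-like cells. The log2 ratio of Igtp was 0.98 in Leydig-like and -2.54 in macrophage-like cells. On the same scale Gbp2 was at 1.697 in Leydig-like and -1.20 in macrophage-like cells, and Usp18 at 1.49 and -3.27 in the same classes. The last value rests on the pseudocount, since Usp18 had 18 young and 0 aged counts in macrophage-like cells, a bound of at least 1.56-fold lower. The macrophage-like values come from a class that joins unlike clusters. Most of its young Igtp counts lay in the cluster without aged cells. Of its 127 young Gbp2 counts, 99 were in 5 cells of cluster 15, chosen for their GTPase counts. In cluster 15, which held cells of both libraries, all 9 measured GTPase genes were lower in the aged library. The log2 ratio of Irgm1 was 0.71 in Leydig-like and -1.54 in fibroblast-like cells. Bst2 was at 0.72 in macrophage-like and -1.74 in spermatocyte-like cells, where Leydig markers were also lower in the aged library (90.9 and 28.7 CPM). With 1 library per age, none of these differences was tested.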

How the results depend on the processing

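Of 134 values recomputed under alternatives, 112 stayed within the limits set, 19 moved beyond them and 3 reversed. Among all alternatives for the log2 ratio of a sum, 7 had the other sign than the reported value. Of these, 3 were called values in single clusters: in the cluster with most young Leydig-like cells the log2 ratio was -0.22 for GTPase and -0.43 for antiviral genes (0.99 and 0.43 in the whole class), and in the macrophage-like cluster with cells of both libraries, an alternative chosen after seeing the data, the antiviral value was -0.77 in place of 0.43. The cluster with most aged Leydig-like cells gave 0.81 and 0.24. Without the gene with most counts, the values were 1.18 (Leydig-like GTPase, without Irgm1), 0.79 (antiviral, without Bst2), -0.44 (macrophage-like GTPase, without Igtp), 0.026 (spermatocyte-like antiviral, without Ddx58) and -0.32 (round spermatid-like GTPase, without Gbp5, against 0.35, a change of sign). The other changes of sign were in spermatocyte-like GTPase genes (-0.37, and 0.41 as a mean over cells) and elongating spermatid-like antiviral genes (-0.14, and 0.09 with cells at least as deep as the shallowest young cell and 0.48 with classes from marker scores). The Leydig-like odds ratio without Irgm1 and Bst2 was 1.31, and 5 antiviral members in place of 9 were higher among those with 50 or more counts, where fewer genes are counted. The macrophage-like GTPase value of -0.80 was -1.18 with doublets kept, -0.45 with classes from marker scores, -2.09 in the cluster of both libraries and -0.38 with cells thinned, and the antiviral value was 0.75 as a mean over cells. Thinning gave 0.16 for spermatocyte-like antiviral genes (0.47) and 0.94 and 0.55 for round spermatid-like GTPase and antiviral genes (0.35 and 0.18). With cells at least as deep as the shallowest young cell, the value was 0.72 for spermatocyte-like antiviral genes. There the class named fibroblast-like took in 38 young and 6 aged cells that were macrophage-like before, so its GTPase value of -2.51 (-0.61 before) is not one of fibroblast-like cells, and the class named macrophage-like held 89 young and no aged cells. The cause of the other shifts was not tested. Scaling by median ratios moved the macrophage-like values to -0.69 for GTPase and 0.54 for antiviral genes, a shift upward. No paired analysis was possible because each age has 1 library. Few counts limit the fibroblast-like and elongating spermatid-like values, and thinning left out 35 of 70 aged macrophage-like cells.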

Other observations

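One cluster held macrophage and Leydig markers together and was left without a name. Its 48 young and 56 aged cells held 391 and 598 CPM of GTPase counts, a ratio of 1.53 (1.23 to 1.90), and 490.3 and 733 CPM of antiviral counts, a ratio of 1.49 (1.23 to 1.81). Irf1 was at 192 and 641 CPM there.

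A cluster led by the antigen-presentation genes H2-Aa, H2-Ab1 and Cd74 held 1 young and 39 aged cells. Its aged cells were at 81.5 CPM of GTPase and 222 CPM of antiviral counts, below both Leydig-like clusters for the GTPase genes. The 30 Sertoli-like cells, all aged, had 0 GTPase counts among 47088 counts, which allows up to 78.3 CPM at the upper 95% bound.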
